A study of Mus musculus with 12 samples.

Results

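The effect of losing Ncam1 was examined in Purkinje cells (PCs), the fast-conducting myocytes of the ventricular conduction system, by setting 3 libraries of Ncam-1 knockout (KO) PCs against 3 of wild-type (WT) PCs. These are 6 of the 12 libraries of the study, picked by the genotype and cell type in their titles, and the other 6 are ventricular myocytes (VMs) of the same genotypes. All mice were adult and carried the Cntn2-EGFP BAC transgene, a reporter in which regulatory sequence of Cntn2 drives GFP. The Ncam-1 -/- line was kept in C57BL/6 and the reporter in CD1 before the lines were crossed, so that WT and KO hearts can differ in strain background as well as in Ncam1. Ventricles were dissociated and the cells were incubated with 50 nM TMRM, a mitochondrial dye that marks cardiomyocytes, for 15 min. Cells positive for TMRM and GFP were collected as PCs and those positive for TMRM alone as VMs. The deletion is present in the germline and therefore in every cell from conception on, and the reporter that defines a PC rests on Cntn2, itself a gene of the conduction system.

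NCAM-1 is a cell adhesion molecule of the immunoglobulin superfamily, best known from the nervous system, where it takes part in axon outgrowth, bundling and guidance. PCs form the network that carries the impulse from the His bundle to the working ventricle, and they share part of their expression programme with neurons and with atrial myocytes. They are set apart from VMs by Cntn2, by connexin 40 (Gja5) and by the transcription factor Etv1. The comparison asks which genes differ in adult PCs that developed without Ncam1. The account below gives most room to gene classes and to single genes outside the 15 that the study selected for display, above all to genes higher in KO PCs.

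The PC libraries held between 13883427 and 42505705 counts on genes, of which between 1532393 and 6761356 lay outside the mitochondrial genome. WT PC replicate 2 stood apart from the rest. In it 63.9% of read pairs had not aligned, against 18.8% to 21.2% in the other PC libraries, 11847 genes had a count, against 14139 to 18129, and its median rank correlation with the other 11 libraries was 0.828, against 0.875 to 0.885. Below, values without this library stand beside the calls and medians that it moved most. Ncam1 (chromosome 9: 49502136-49798925 of GRCm38, minus strand) had normalised read counts of 36.2, 66.3 and 67.0 in WT PCs and of 0, 1.26 and 0.668 in KO PCs. The KO libraries held 0, 1 and 1 raw counts, so that Ncam1 was at least 15.3-fold lower against a floor of 3 counts per library. Cntn2 stood at 237, 451 and 533 in WT PCs and at 38.7, 49.2 and 452 in KO PCs. KO PC replicate 3 thus lay in the range of the WT libraries for the gene behind the sort and KO PC replicates 1 and 2 lay far below it, while no VM library exceeded 8.99. The groups overlapped and the log2 fold change of -1.12 ± 0.78 (SE) had an adjusted p = 0.99 by edgeR's quasi-likelihood test. In sorted bulk RNA, fewer cells of a type and less RNA per cell cannot be told apart.

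Of 11754 genes tested, 61 were higher and 317 lower in KO PCs at an unadjusted p under 0.05, the threshold that the study used. These are 0.519% and 2.70% of the genes tested, 3.22% in all, where a threshold of 0.05 would pass 5% if no gene differed. Genes past this threshold are termed called below. No gene passed an adjusted p of 0.05 by the quasi-likelihood test of edgeR after Benjamini-Hochberg adjustment, where the smallest value was 0.255 for Ncam1 and the smallest of any gene higher in KO was 0.99. DESeq2's Wald test passed 7 genes (Ncam1, Scn4b, Plet1os, Rps13-ps1, Slc16a12 and Gm14902, all lower, and Tmprss13, higher) and limma voom passed 1 (Scn4b). The 3 KO libraries lay all above or all below the 3 WT libraries for 567 genes higher (4.82% of those tested) and 552 genes lower (4.70%). Among the genes past the unadjusted threshold this held for 55 of the 61 higher and 178 of the 317 lower. The 15 displayed genes were all among the 317, and since they were chosen on these samples their direction here is not independent evidence. Beside the sequencing, the study reported lower Pcp4, Drd2, Etv1 and Scn4b in sorted KO PCs by quantitative PCR. It also reported less SCN4B protein in KO ventricles by western blot.

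The genes lower in KO rested on WT PC replicate 2 far more than the genes higher in KO. Of the 317, 271 had their highest WT value in that library, and in 155 it exceeded the other 2 WT libraries by more than 3-fold. Over all genes tested it was the highest WT library for 36.6%. Of the 61 genes higher in KO, 43 had their lowest WT value in it, where over all genes tested 51.2% did. In 22 of the 61 it had a raw count of 0. Without it, 175 of 12037 genes were higher (1.45%) and 287 lower (2.38%). Of the 61 genes higher with all libraries 59 were among those 175, and of the 317 genes lower 99 were among the 287, while 55 of the 317 no longer had enough counts to be tested. Without it 4 genes passed an adjusted p of 0.05 by edgeR's quasi-likelihood test, Ncam1, Scn4b, Plet1os and Rps13-ps1. The omission of WT PC replicate 1 gave 154 genes higher and 725 lower, that of WT PC replicate 3 gave 133 and 535, and the omission of a KO library left 36 to 42 higher and 133 to 195 lower. A p under 0.05 in all 6 omissions was reached by 6 of the genes higher in KO and by 27 of those lower, of which 19 are outside the displayed 15.

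**Figure D1:**
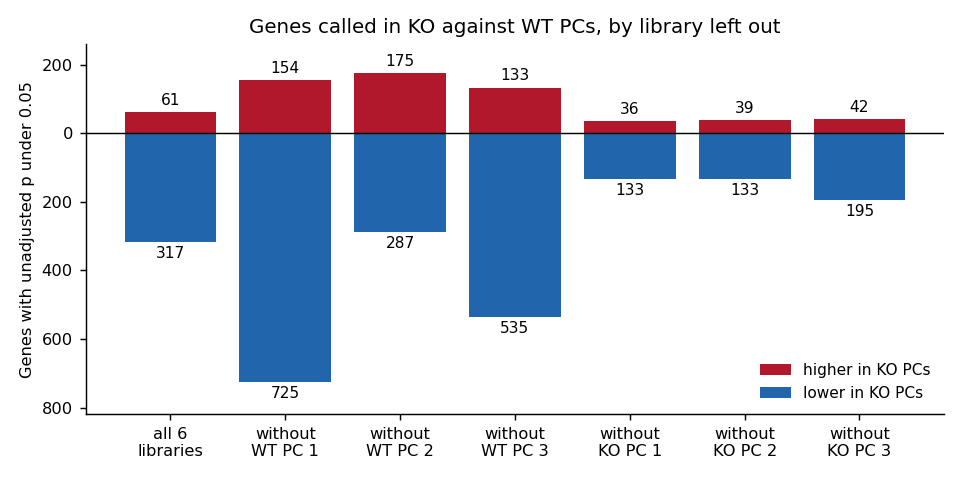
Number of genes with an unadjusted p under 0.05 in KO against WT PCs (vertical axis, counted upwards for higher and downwards for lower) with all 6 libraries and after leaving out each library (horizontal axis). The number higher in KO is 175 without WT PC 2 against 61 with all libraries, and the number lower is 725 without WT PC 1 against 317.

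Of the 6 genes higher in KO PCs under every omission, the 5 described here code for a membrane serine protease, a magnesium transporter, a small GTPase, a mitochondrial phosphatase and a membrane protein of the endoplasmic reticulum. Tmprss13, the protease (chromosome 9: 45319100-45347581), stood at 1.31, 3.90 and 2.89 in WT PCs and at 31.6, 31.6 and 40.8 in KO PCs. Every KO library lay far above every WT library, and the log2 fold change was 3.78 ± 0.75 (SE; adjusted p = 0.99 by edgeR's quasi-likelihood test). Slc41a3, the magnesium transporter, had 152, 107 and 120 in WT PCs and 288, 247 and 269 in KO PCs (log2 fold change 1.07 ± 0.27). Rit1, a GTPase of the Ras family, had 36.2, 58.5 and 63.6 in WT PCs and 134, 106 and 132 in KO PCs (log2 fold change 1.24 ± 0.37). Both genes were separated by genotype with no overlap, and their adjusted p, like that of every gene higher in KO, did not fall below 0.99. Pdp2, a phosphatase that activates pyruvate dehydrogenase, had 58.4, 37.1 and 74.5 in WT PCs and 163, 154 and 98.9 in KO PCs (log2 fold change 1.26 ± 0.39). Tmcc1, which takes part in endosome fission at contacts with the endoplasmic reticulum, had 182, 117 and 196 in WT PCs and 299, 294 and 341 in KO PCs (log2 fold change 0.91 ± 0.28).

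**Figure D2:**
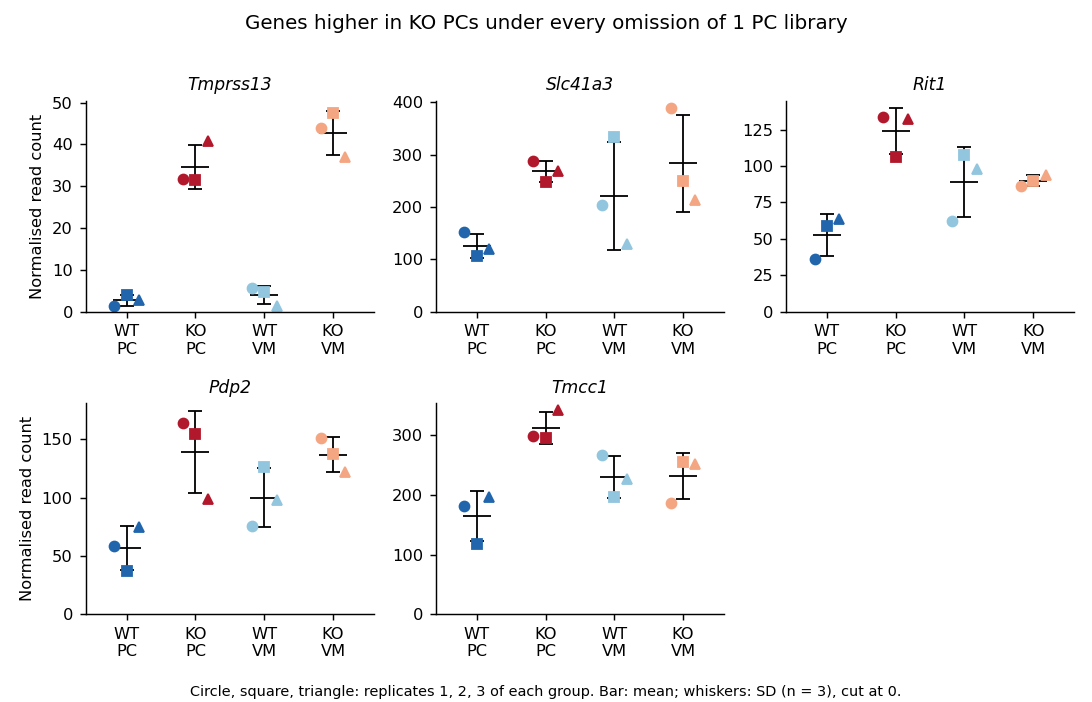
Normalised read count (vertical axes, linear and starting at 0) of 5 genes with p under 0.05 under every omission of a PC library, in each library of the 4 groups. The 3 KO PC libraries lie above the 3 WT PC libraries in each panel, and for Tmprss13 the KO VM libraries also lie above the WT VM libraries.

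The promoters of these genes are shown because the genes were higher together in every omission. RefSeq gave a window for 3 of the 5 (Slc41a3, Rit1 and Pdp2), and the 250 bases before the start are printed 5′ to 3′ on the plus strand of GRCm38.p6, with CCAAT and GGGCGG and their reverse complements ATTGG and CCGCCC in capitals. The window of Slc41a3 precedes the RefSeq start, which lies inside the longer gene span that GENCODE gives (chromosome 6: 90604725-90646412). Those of Rit1 and Pdp2 end just inside the spans of GENCODE, which start at 88716838 and 104591451. The windows are chr6:90618996-90619245 for Slc41a3, chr3:88716604-88716853 for Rit1 and chr8:104591222-104591471 for Pdp2.
Slc41a3: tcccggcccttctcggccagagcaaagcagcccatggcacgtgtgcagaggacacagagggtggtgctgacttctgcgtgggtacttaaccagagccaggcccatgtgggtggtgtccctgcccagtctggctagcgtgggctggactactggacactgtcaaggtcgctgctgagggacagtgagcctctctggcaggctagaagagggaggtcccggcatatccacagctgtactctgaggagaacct
Rit1: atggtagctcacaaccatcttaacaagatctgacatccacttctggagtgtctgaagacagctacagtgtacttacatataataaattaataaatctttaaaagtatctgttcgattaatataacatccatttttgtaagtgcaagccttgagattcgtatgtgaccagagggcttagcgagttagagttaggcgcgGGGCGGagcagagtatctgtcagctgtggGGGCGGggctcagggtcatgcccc
Pdp2: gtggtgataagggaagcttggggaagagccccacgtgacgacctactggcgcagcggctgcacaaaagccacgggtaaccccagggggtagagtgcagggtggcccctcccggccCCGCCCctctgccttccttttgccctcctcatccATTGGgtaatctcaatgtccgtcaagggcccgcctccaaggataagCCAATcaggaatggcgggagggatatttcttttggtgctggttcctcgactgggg
Rit1 held GGGCGG more than once, Pdp2 held both motifs and Slc41a3 held neither, and none of the 3 held TATAAA or its reverse complement TTTATA. Over the 52 windows of 46 of the 61 genes higher in KO, 46.2% held CCAAT, 53.8% held GGGCGG and 7.69% held TATAAA on either strand. Over the 11168 windows of all genes tested the shares were 34.8%, 57.3% and 6.77%, and over all 32851 windows given by RefSeq they were 33.8%, 32.7% and 12.4%.

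The remaining 14 of the 20 genes with the smallest p-values among those higher in KO had log2 fold changes from 0.80 for Sec24c, a coat protein of vesicles that leave the endoplasmic reticulum, upwards. Trpc1, a cation channel of the plasma membrane, had 53.2, 48.8 and 52.0 in WT PCs and 128, 96.0 and 90.2 in KO PCs (log2 fold change 1.02 ± 0.36). Mmab, a mitochondrial enzyme that makes adenosylcobalamin, had 17.4, 13.7 and 32.9 in WT PCs and 42.2, 55.6 and 116 in KO PCs (log2 fold change 1.72 ± 0.57). Neither gene overlapped between the groups. Tmod4, a tropomodulin that caps actin filaments of muscle, had 23.1, 5.85 and 27.2 in WT PCs and 40.4, 89.6 and 60.1 in KO PCs. Mal, a membrane raft protein, had 61.5, 31.2 and 26.6 in WT PCs and 111, 83.3 and 102 in KO PCs. For Tmod4 the lowest WT value was that of WT PC replicate 2, and its log2 fold change was 1.69 with that library and 1.34 without it. Klhl38, Klhdc8a and F830016B08Rik were higher by log2 fold changes of 1.08, 1.26 and 1, all without overlap. Gsap, a protein that regulates gamma-secretase, had 3.49, 0 and 2.89 in WT PCs and 21.1, 12.6 and 25.4 in KO PCs. Pcdhb14, a protocadherin of a cluster whose members are similar in sequence, had 4.79, 0 and 1.16 in WT PCs and 14.1, 13.9 and 26.7 in KO PCs.

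Several genes in this group rested on few counts or on 1 library. Slc39a11, a zinc transporter, had raw counts of 2, 0 and 1 in WT PCs and of 2, 9 and 41 in KO PCs, so that it was at least 4.75-fold higher against the floor. Esm1, a proteoglycan of endothelial cells, had no count in WT PCs and 4, 0 and 32 in KO PCs. Cd180, a receptor of B cells and macrophages, also had none in WT PCs and 0, 29 and 3 in KO PCs, so that its position among the 20 came from KO PC replicate 2. Slc39a11 overlaps Cog1, Cd180 overlaps Mast4 and Gsap overlaps Ccdc146 on the chromosome. Whether the counting used strand is not given in the sources used here, so that reads of these neighbours may be included. The same limit holds for Lamb3, described below, which overlaps G0s2, Hsd11b1 and Gm37691. Cxcl12, a chemokine of endothelial and stromal cells, had 101, 99.5 and 129 in WT PCs and 538, 235 and 110 in KO PCs, and the groups overlapped. The highest value was that of KO PC replicate 1, in which 24 endothelial and endocardial markers together took 1621 CPM, here computed from the counts outside the mitochondrial genome, against 509 to 840 in the other PC libraries. The part of the endothelial level in the Cxcl12 value was not tested, and none of the 23 endothelial markers tested was called in either direction.

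Of the 15 genes with the smallest p-values among those lower in KO and outside the displayed ones, some were lower in every KO library and others followed the WT libraries' own spread. Slc16a12, a transporter of creatine and monocarboxylates, stood at 79.8, 410 and 261 in WT PCs and at 12.3, 32.8 and 58.1 in KO PCs, with a log2 fold change of -2.76 ± 0.65 (SE; adjusted p = 0.99 by edgeR's quasi-likelihood test). It did not exceed 11.1 in any VM library, below every PC library. Pts, an enzyme of tetrahydrobiopterin synthesis, had 56.7, 87.8 and 66.5 in WT PCs and 10.5, 29 and 14.0 in KO PCs (log2 fold change -1.95 ± 0.53). Sh3bgrl, a small protein related to glutaredoxins, had 253, 474 and 255 in WT PCs and 144, 168 and 102 in KO PCs (log2 fold change -1.24 ± 0.33). Retreg2, a receptor for autophagy of the endoplasmic reticulum, had 26.2, 113 and 19.6 in WT PCs and 7.03, 1.26 and 6.01 in KO PCs. None of these 4 overlapped between the groups, and all 4 kept p under 0.05 in each of the 6 omissions. Rad51c, a DNA repair gene, had raw counts of 39, 8 and 7 in WT PCs and 0 in each KO library, which makes it at least 3.31-fold lower.

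In contrast, Oip5 had 9.59, 1207 and 1.73 in WT PCs and no more than 1.34 in KO PCs, and Gm14902 had 5.23, 133 and 6.36 in WT PCs. Tifa (10.0, 80.0 and 2.31 in WT PCs), Nrtn (2.62, 74.1 and 12.1) and Sncaip (11.8, 150 and 40.5) also had their highest value in WT PC replicate 2. Oip5, Gm14902, Tifa and Nrtn fell under the minimum of 5 mean normalised counts when it was left out, so that no test was left. Oip5 overlaps Nusap1 and Tifa overlaps Ap1ar, with the same limit on the counts. Sncaip, which binds alpha-synuclein, kept a log2 fold change of -1.82, against -3.12 with all libraries, and was still called. Rps13-ps1, a processed pseudogene of a ribosomal protein, had 80.6, 3.90 and 93.6 in WT PCs and 0, 2.53 and 1.34 in KO PCs. It was low in replicate 2 of the WT VMs as well, with 128, 1.88 and 110. Its reads can be shared with the parent gene and with other copies of it.

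**Figure D3:**
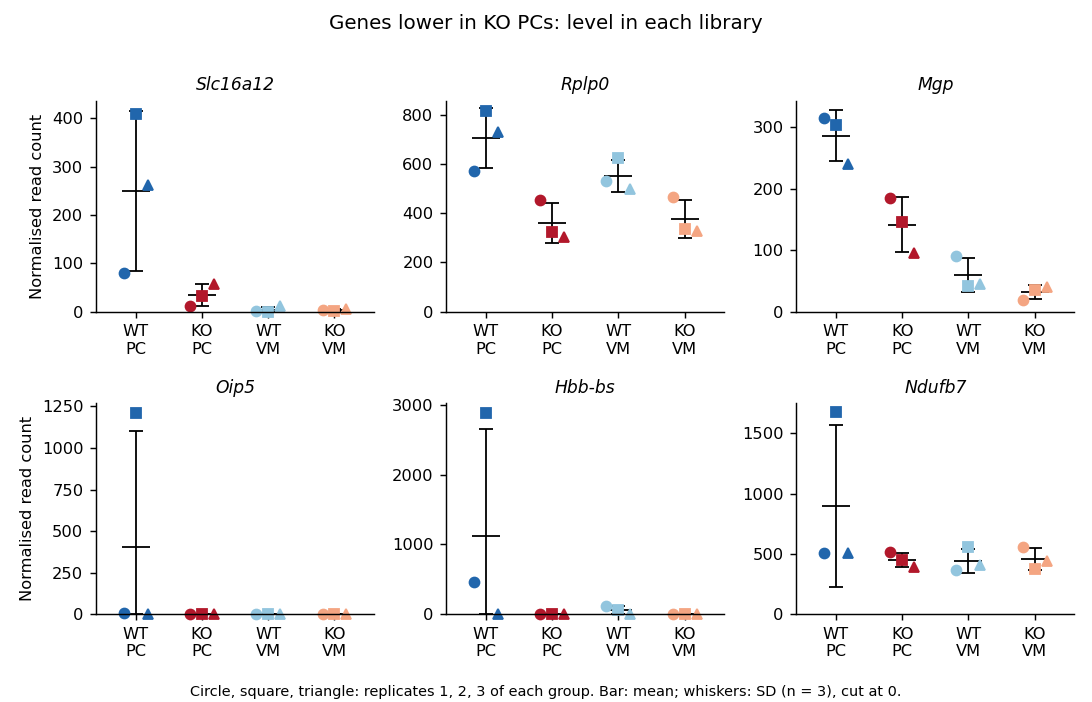
Normalised read count (vertical axes, linear and starting at 0) of 6 genes called lower in KO PCs, in each library of the 4 groups. For Slc16a12, Rplp0 and Mgp all 3 WT PC libraries lie above the KO PC libraries, whereas Oip5, Hbb-bs and Ndufb7 owe their high WT mean to WT PC replicate 2, together with replicate 1 for Hbb-bs.

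Among the classes of myocyte genes, the markers of PCs had the lowest median. Of 21 markers, all tested, 8 were called lower (38.1%, against 2.70% of all genes) and 1 higher, and their median log2 fold change was -1.12, against 0.00 over all genes. The list includes Ncam1 itself and 5 others of the displayed 15, so that its count is not independent evidence. Of the others, Hopx, a homeodomain protein of the conduction system, had 1819, 3000 and 1656 in WT PCs and 1021, 1410 and 1302 in KO PCs, a log2 fold change of -0.78 ± 0.27. Ephb3, an ephrin receptor, had a log2 fold change of -1.76 with all libraries and -0.77 without WT PC replicate 2, when it was no longer called. The summed level of the markers was 1213, 2145 and 2267 CPM in WT PCs, and 828, 841 and 1316 in KO PCs. WT PC replicate 1 was thus below KO PC replicate 3, and all 6 PC libraries lay above the VMs, which ranged from 439 to 560. The list holds Cntn2, the gene behind the sort, whose own log2 fold change is the median of the list. Over the other 20 markers the median was -1.16, and it ran from -2.08 without KO PC replicate 3 to -0.71 without WT PC replicate 2. Gja5 had 51.9, 44.9 and 84.9 in WT PCs and 22.9, 5.05 and 92.2 in KO PCs, a split among the KO libraries like that of Cntn2. How far the content of PCs in each sort contributed to these values was not tested.

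Fetal and atrial myocyte genes had the median log2 fold change next lowest among the myocyte classes, -0.68 over 22 genes tested, with 4 called lower (18.2%) and none higher. Stard10, a lipid transfer protein, had 93.3, 222 and 161 in WT PCs and 14.1, 36.6 and 78.2 in KO PCs (log2 fold change -1.81 ± 0.57). Ankrd1, a stress-responsive ankyrin repeat protein of the sarcomere, had 3006, 4432 and 3238 in WT PCs and 1886, 2419 and 2374 in KO PCs (log2 fold change -0.67 ± 0.23). Both were lower in every KO library. Sbk3 had 148, 257 and 592 in WT PCs and 63.3, 25.3 and 224 in KO PCs, with overlap. Bmp10, a ligand made by atrial trabecular myocytes, had 61.5, 0 and 0.578 in WT PCs and none in KO PCs, and replicate 1 was also the high library among WT VMs (49.7, 0 and 0). Without WT PC replicate 2 the class had 7 genes lower of 22 and a median of -0.44.

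Elastic fibre genes and proteoglycans had a median below 0 in every omission. Of 45 genes tested, 6 were lower (13.3%) and none higher, with a median log2 fold change of -0.47 that ran from -0.55 to -0.28 over the 6 omissions, and 7 of 46 were lower without WT PC replicate 2. Of the 6, Vcan, Spock2 and Eln are among the displayed 15. Ogn, a small leucine-rich proteoglycan, had 1146, 1980 and 1355 in WT PCs and 884, 1074 and 910 in KO PCs (log2 fold change -0.64 ± 0.25), without overlap. Efemp1 and Sparcl1 were called with all libraries but had log2 fold changes of -0.49 and -0.32 without WT PC replicate 2 and were then not called. Mgp, an inhibitor of calcification that fibroblasts and vascular cells make, had 316, 304 and 240 in WT PCs and 185, 145 and 95.6 in KO PCs, a log2 fold change of -1.03 ± 0.30, and was called in every omission. Fibroblast markers as a list, which hold Mgp and Ogn, had a median of -0.46 over 21 genes tested, with summed levels of 1219, 1742 and 1187 CPM in WT PCs and 1130, 1079 and 874 in KO PCs, and the part of this level in the matrix genes was not tested. Collagens and laminins had a median of -0.24, with 2 of 31 lower (Col13a1 and Lamb3), and -0.08 without WT PC replicate 2, when Col13a1 could no longer be tested and Lamb3 was not called (log2 fold change -0.75, against -1.81 with all libraries).

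The calls in the classes of membrane excitability are set here beside the shares over all genes tested, 2.70% lower and 0.519% higher. Of 25 sodium and HCN channel and sodium pump genes tested, 3 were lower (12%) and 1 was higher (4%). Of the 3, Scn4b and Scn10a are among the displayed 15, and Fgf12, an intracellular modulator of sodium channels, had 23.5, 76.1 and 71.7 in WT PCs and 7.03, 29 and 21.4 in KO PCs with a slight overlap. Hcn4, the main pacemaker subunit of the sinus node, had 30.1, 87.8 and 32.9 in WT PCs and 10.5, 13.9 and 31.4 in KO PCs (log2 fold change -1.33 ± 0.65) and was not called. Of 55 calcium channel and handling genes 2 were lower (3.64%), Pcp4 of the displayed genes and Cacnb4, an auxiliary subunit of calcium channels. Cacnb4 had 21.4, 9.75 and 39.9 in WT PCs and 5.27, 1.26 and 7.35 in KO PCs. None of 27 potassium channel genes was called in either direction by edgeR's test at an unadjusted p under 0.05. Of 66 genes of cAMP and G protein signalling 4 were lower (6.06%). Besides Drd2 these were Rgs7, with 27.5, 68.3 and 117 in WT PCs and 10.5, 27.8 and 25.4 in KO PCs, Adora1, and Rgs2, whose value of 1607 in WT PC replicate 2 stood against 207 and 443 in the other WT libraries. Without that library Rgs2 (log2 fold change -0.44, against -1.62 with all libraries) and Adora1 (-0.94, against -1.33) were not called. The class then had 2 genes higher and 2 lower of 67, and its median log2 fold change went from 0.07 to -0.08.

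Axon guidance genes and growth factors showed calls in both directions or few in all. Of 51 axon guidance genes tested 5 were lower (9.80%) and 1 higher, and the median log2 fold change of the class was 0.27, opposite in sign to its calls, with 33 of 51 genes above 0. Of the 5, Sema3a, Slit2 and Robo1 are among the displayed 15. Sema3c, a secreted semaphorin, had 170, 423 and 307 in WT PCs and 49.2, 130 and 174 in KO PCs (log2 fold change -1.31 ± 0.47), with WT PC replicate 1 just below KO PC replicate 3. The gene called higher was Cxcl12, described above. Of 64 growth factors and receptors 3 were lower, Igf1 of the displayed genes, Igfbp6, whose counts lay mostly in WT PC replicate 2, and Vegfc. Vegfc, a lymphatic growth factor, had 41.8, 31.2 and 24.3 in WT PCs and 5.27, 5.05 and 14.0 in KO PCs (log2 fold change -1.92 ± 0.68). Of 29 adhesion molecules of the immunoglobulin and cadherin families Ncam1 alone was called with all libraries, and 4 were lower without WT PC replicate 2. Of 41 genes of microtubules and the neurite cytoskeleton 1 was lower, Kif1a, a kinesin of axonal transport, with 39.7, 42.9 and 67.6 in WT PCs and 19.3, 5.05 and 25.4 in KO PCs.

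Few genes of the contractile, metabolic and other lists below were called with all libraries. Over all genes tested 2.70% were lower and 0.519% higher, so that lists of this size can be expected to hold few calls or none. The counts therefore do not show that a class was spared. None was called in either direction among 29 intercalated disc genes, 49 genes of glycolysis and glycogen, 33 immediate early genes, 23 mitochondrial transcripts and 19 histone genes. Without WT PC replicate 2, 3 of the 33 immediate early genes were lower and their median log2 fold change moved from -0.03 to -0.31. Ankrd1 alone was lower among 53 sarcomere and Z-disc genes, Tef alone among 23 circadian genes, Acaa1a alone among 51 genes of fatty acid uptake and oxidation, Hspa1l alone among 68 heat shock proteins and chaperones, Gpx3 alone among 42 genes of oxidative stress and p53, Eef1a1 alone among 64 translation factors and Psmg3 alone among 48 proteasome genes. For Acaa1a, a peroxisomal thiolase, the WT values of 70.2, 505 and 93.0 against 73.8, 65.7 and 68.8 in KO PCs show a difference confined to WT PC replicate 2, and Tef, Hspa1l, Gpx3 and Psmg3 also had their highest value there. Without that library Acaa1a, Tef, Gpx3 and Psmg3 were not called and Hspa1l could not be tested. Of the sarcomere and Z-disc genes, 4 of 54 were lower without WT PC replicate 2 and 7 without WT PC replicate 1. The list of conduction system and cardiac transcription factors, with 47 genes tested, also holds the ligand Bmp10. On this list 3 genes were lower, Hopx, Bmp10 and Etv1, and the counts of Bmp10 lay almost all in WT PC replicate 1. Of 52 interferon-response genes H2-Q4 was higher and H2-T23 lower, both class I histocompatibility genes with near-identical copies that can share reads. Without WT PC replicate 2 the transcription factor list had 2 genes higher and 4 lower of 47. The interferon-response genes then had 3 higher and 1 lower of 51, while H2-T23 was not called (log2 fold change -1.47, against -4.06 with all libraries). Top2a, a topoisomerase of dividing cells, was the only one of 27 cell cycle genes called higher, at 3.05, 0 and 0.578 in WT PCs and 5.27, 5.05 and 20.7 in KO PCs. It rested on few counts, mostly of KO PC replicate 3 (raw counts of 7, 0 and 1 in WT PCs and 3, 4 and 31 in KO PCs). It was called in 3 of the 6 omissions.

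**Figure D4:**
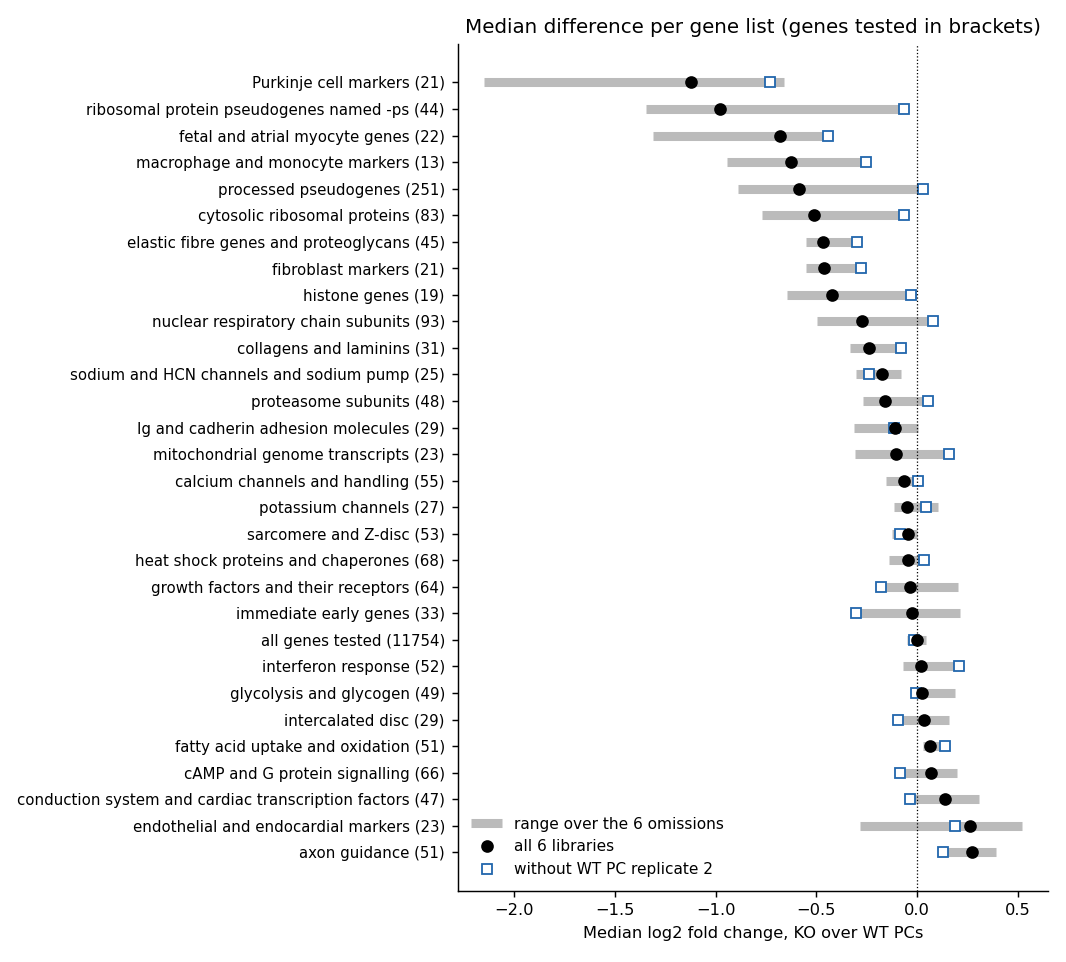
Median log2 fold change of KO over WT PCs (horizontal axis) for gene lists (rows, with the number of genes tested), with all 6 libraries (black points), without WT PC replicate 2 (open squares) and the range over the omission of each library (grey bars). The medians of ribosomal proteins, processed pseudogenes and nuclear respiratory chain subunits come within 0.1 of 0 without WT PC replicate 2. Those of PC markers, fetal and atrial genes, elastic fibre genes, fibroblast markers and macrophage markers stay below -0.2. The medians of sodium and HCN channel genes and of immediate early genes are below -0.2 without that library but not with all 6.

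Ribosomal proteins had more genes called lower than any other pathway or marker list, and the calls went with WT PC replicate 2. Of 83 cytosolic ribosomal protein genes tested 11 were lower (13.3%), none was higher, and 78 had a log2 fold change below 0, with a median of -0.51. Without this library 1 was lower and 1 higher and the median was -0.07, whereas the omission of WT PC replicate 1 gave 38 lower and a median of -0.77. The class took 9444, 22540 and 12390 CPM in WT PCs and 12860, 10170 and 8970 in KO PCs, so that WT PC replicates 1 and 3 lay within the KO range. Rplp0, a protein of the ribosomal stalk, was the exception. It had 572, 815 and 729 in WT PCs and 455, 324 and 303 in KO PCs, a log2 fold change of -0.97 ± 0.25 (SE; adjusted p = 0.99 by edgeR's quasi-likelihood test), and without WT PC replicate 2 it was -0.87 (adjusted p = 0.78). Rpl41, by contrast, had 663, 2538 and 958 in WT PCs and 794, 597 and 623 in KO PCs.

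The medians of ribosomal pseudogenes and of the respiratory chain also moved with this library. The 44 pseudogenes of ribosomal proteins tested, whose reads cannot be told apart from those of their parent genes where the sequences match, had a median log2 fold change of -0.98, and -0.07 without WT PC replicate 2. Over all 251 processed pseudogenes tested the medians were -0.59 and 0.03. Of 93 nuclear-encoded respiratory chain subunits 2 were lower, and the median was -0.27 with this library and 0.08 without it. Ndufb7, a subunit of complex I, had 512, 1674 and 508 in WT PCs and 513, 448 and 396 in KO PCs. The class took 95550 CPM in WT PC replicate 2, against 50160 to 61420 in the other 5 PC libraries. The part of its low share of aligned pairs in these values was not tested.

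Markers of blood cells were high in some WT libraries. Hbb-bs, a beta globin gene of red cells, had 469, 2873 and 0.578 in WT PCs and 0, 1.26 and 12 in KO PCs, and Hbb-bt had 61.5, 74.1 and 0.578 against 0, 0 and 2. The groups overlapped, since WT PC replicate 3 was as low as the KO libraries. All 4 globin genes tested were called lower. The globin genes are near-identical copies, and counts can be split among them. Erythroid and platelet markers took 189, 1059 and 4.24 CPM in WT PCs and 1.91, 1.81 and 6.78 in KO PCs, and replicates 1 and 2 were also the high ones among WT VMs, at 47.9 and 26.6 against 3.01. Macrophage and monocyte markers took 373 CPM in WT PC replicate 2, against 136 to 178 in the other 5 PC libraries, and lymphocyte markers 77.7 against 5.42 to 11.7. Cd163, a scavenger receptor of macrophages, was the only one of 13 macrophage markers called, with 30.5, 70.2 and 23.7 in WT PCs and 5.27, 7.58 and 22.1 in KO PCs. Ms4a1, a B cell gene, had 179 in WT PC replicate 2 and 0 to 3.92 in every other PC library. Smooth muscle and pericyte markers and adipocyte and epicardial markers held no call, and of 3 Schwann cell and neuron markers tested Pmp22 alone was lower. Without WT PC replicate 2 neither Cd163 (log2 fold change -1.11, against -1.70 with all libraries) nor Pmp22 (-0.40, against -0.80) was called, and Ms4a1 could not be tested.

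The VM libraries share none of the 6 PC libraries and give the difference between the genotypes in the neighbouring myocytes, where 201 of 10737 genes were higher (1.87%) and 349 lower (3.25%) in KO. Whether PCs and VMs came from the same hearts is not given in the sources used here. In the WT libraries Rps13-ps1, Bmp10 and the erythroid markers, described above, went with the replicate number in both cell types. The fits described here took every library as independent. If hearts were shared, genes called in both cell types are not independent evidence. Of the 61 genes higher in KO PCs, 48 could be tested in VMs, and 9 were also higher there at an unadjusted p under 0.05 and none lower. Of the 317 lower, 216 could be tested, and 21 were also lower and 5 higher. Tmprss13 stood at 5.63, 4.71 and 1.48 in WT VMs and at 43.8, 47.5 and 37 in KO VMs, with a log2 fold change of 3.45 ± 0.47 (adjusted p = 0.0046 by edgeR's quasi-likelihood test). It is the only one of the 61 with an adjusted p under 0.05 in VMs. Klhl38 and F830016B08Rik were higher in VMs by 0.60 and 0.85 on the log2 scale. Rab6b, Gm13212 and Zfp984, named here after their values were seen, were higher by 2.52, 1.28 and 1.91 in VMs and by 2.41, 1.03 and 2.18 in PCs. Gm13212 and the zinc finger gene Zfp984 lie on chromosome 4 among similar copies, so that reads may be shared.

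**Figure D5:**
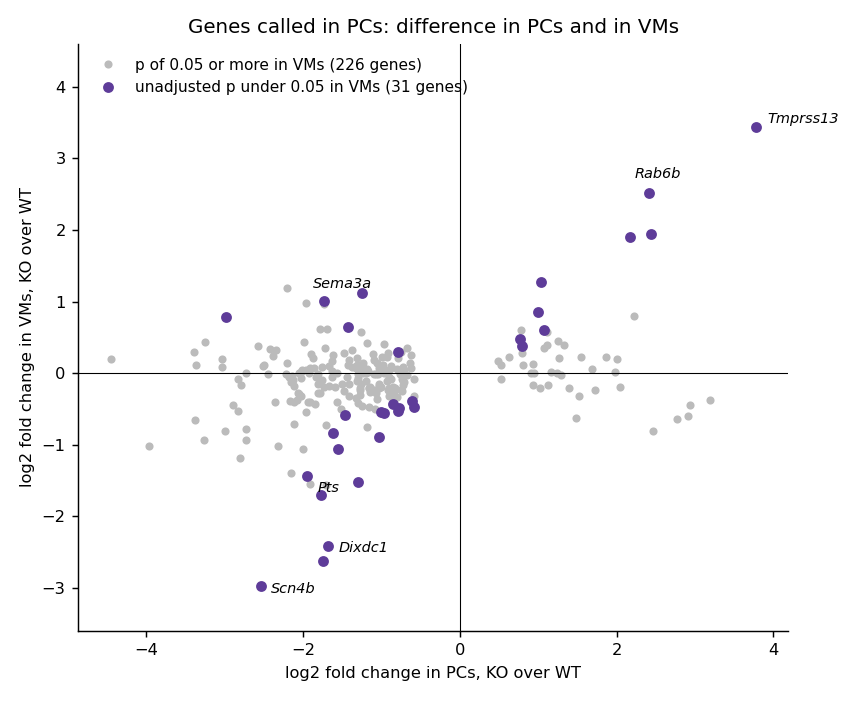
Log2 fold change of KO over WT in PCs (horizontal axis) and in VMs (vertical axis) for the 257 genes called in PCs that were also tested in VMs and had more than 3 counts in some library of every group. Of these, 31 had an unadjusted p under 0.05 in VMs (purple), and Tmprss13 and Rab6b at the upper right and Scn4b and Dixdc1 at the lower left differ the same way in both cell types.

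Among genes lower in both cell types, Plet1os, a noncoding gene, had 67.6, 519 and 113 in WT PCs and 109, 86.6 and 111 in WT VMs, and none of the KO libraries of either cell type exceeded 2.32. Rps13-ps1, Pts, Rplp0 and Mgp were lower in KO VMs too, with log2 fold changes of -4.92, -1.44, -0.56 and -0.90. Tmprss13, Plet1os and Pts lie near Ncam1 on chromosome 9. Of 147 genes tested within 10 Mb of it, 0.680% were higher and 4.08% lower, against 0.519% and 2.70% of all genes tested. These were 1 higher (Tmprss13, at 4.15 Mb) and 6 lower genes (Plet1os at 0.690 Mb, Pts at 0.723 Mb, Dixdc1 at 0.864 Mb, Drd2 at 0.0940 Mb, Scn4b at 4.35 Mb and 3110039I08Rik at 7.79 Mb), and the parts of linked strain sequence and of Ncam1 itself in these values cannot be told apart.

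Other differences were seen in PCs and not in VMs, or had the opposite sign there, but the difference between the cell types did not pass adjustment for any gene. In a single fit of all 12 libraries, the genotype effect in PCs minus that in VMs had an unadjusted p under 0.05 for 328 of 11323 genes (2.90%) and an adjusted p under 0.05 for 0 by edgeR's quasi-likelihood test, by DESeq2 and by voom. Of the genes called in PCs, 20 of the 52 higher and 93 of the 294 lower that could be tested were among the 328, a comparison that shares the PC libraries with the calls. Rit1 had a log2 fold change of 0.01 ± 0.23 in VMs, with 61.9, 107 and 97.6 in WT VMs and 86.3, 89.9 and 93.8 in KO VMs, and its difference between the cell types was 1.23 (adjusted p = 1 by edgeR's test). Trpc1 and Mmab were at -0.21 and -0.24 in VMs, with differences of 1.21 and 1.95 on the log2 scale. Tmcc1 was at 0.01 in VMs with a difference of 0.89. Slc41a3 and Pdp2, at 0.36 ± 0.28 and 0.44 ± 0.21 in VMs, had differences of 0.71 and 0.79 that did not reach an unadjusted p of 0.05. Retreg2 and Hopx were lower in PCs and had log2 fold changes of 0.29 and 0.30 in VMs, with differences of -3.68 and -1.10. Hopx was thus called lower in PCs and higher in VMs (unadjusted p = 0.032 and adjusted p = 0.93 in VMs by edgeR's quasi-likelihood test). In Retreg2 the effect in PCs was -3.39 with all libraries and -2.25 without WT PC replicate 2, and in Hopx it was -0.78 and -0.49.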

How the data were processed

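The values analysed are raw counts, which the authors deposited as 1 file per library: the number of read pairs that HTSeq assigned to each of 48526 genes after alignment to mm10 with STAR, without normalization. RNA had been amplified before library preparation, and no molecular identifiers enter the counts, so that any floor covers counting error alone. Whether the counting used strand is not given in the sources used here, so antisense partners may share reads. Rows for unassigned pairs were left out. Symbols, types and positions came from GENCODE M21 (GRCm38), which lacks 382 of the identifiers.

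Groups followed the sample titles. KO PC was compared with WT PC in edgeR 4.0.16 (R 4.3.3) with TMM factors, genes with a mean normalized count above 5, and glmQLFit and glmQLFTest. A gene was called at an unadjusted p under 0.05, as in the study, and Benjamini-Hochberg values run over all genes tested. The SE is the log2 fold change divided by the square root of the F statistic. Displayed normalised read counts use TMM over all 12 libraries. A group with 3 or fewer counts in every library was at the floor, and folds against it are lower bounds. VMs were compared in the same way, and the difference between cell types in 1 fit of 12 libraries. Nothing in the titles says that replicates are separate animals, so the p-values measure only the spread between these libraries. Counts of replicates differed beyond sampling noise, with a chi-square of at least 7.03 per degree of freedom for each pair.

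The gene lists, like the choice of this comparison, were drawn up with earlier results of these data known. Genes were named by rule: the 20 smallest p-values among higher genes, the 15 smallest among lower genes outside the displayed ones, every list member called, Ncam1 and Cntn2, and defining members of a list. Others are marked, and some genes under the rule are not reported here. Alternatives were DESeq2 1.42.0, its size factors, filterByExpr, no filter, limma 3.58.1 voom with quality weights, a replicate block, a single fit of 12 libraries, omission of mitochondrial genes, a correction for length and GC content and the omission of each library. Omissions of VM libraries and of Cntn2 from the PC markers were chosen after seeing the data. The fits of KO against WT PCs were also run on simulated counts, with a common dispersion and no library whose profile stands apart. That run cannot show how the fits behave with WT PC replicate 2. Reads were not aligned again.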

Additional observations from a re-analysis of the deposited data

How the results depend on the processing

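Genes higher and lower in KO PCs numbered 61 and 317, with 0 past an adjusted p of 0.05 by edgeR. DESeq2's Wald test gave 106 higher, 456 lower and 7 adjusted. Voom with quality weights gave 193, 310 and 1. No filter on low counts gave 287, 839 and 132, and a single fit of 12 libraries 275, 688 and 3. The replicate block gave 71 higher, 208 lower and 1 adjusted (Plet1os), and with the correction for length and GC 70, 254 and 1. DESeq2's size factors gave 67 and 325, filterByExpr 52 and 219, omission of mitochondrial genes 67 and 306, and the correction alone 74 and 395, all with 0 adjusted. The omission of 1 library gave 36 to 175 higher, 133 to 725 lower and 0 to 4 adjusted. The cause of these changes was not tested. The replicate numbers are not stated to mark a shared sort or batch, and a KO and a WT library cannot share an animal. Deviations of same-numbered KO and WT PC libraries correlated at -0.0036, 0.052 and 0.11 over 8305 genes. KO replicates 2 and 3 correlated best with the WT library of the same number, and KO replicate 1 with WT replicate 2 (0.029). The numbers were not taken as pairs.

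The difference between cell types gave 0 genes in each alternative except 19 without a filter. KO against WT VMs gave 4 genes (Plet1os, Scn4b, Tmprss13 and Nedd1) and 2 to 10 over omissions. For the named genes, 0 values changed sign, 253 of 1493 values under an alternative lost p under 0.05, 5 gained it and 1235 stayed on the same side. Weakly expressed genes are limited by the 1532393 counts of WT PC replicate 2 outside the mitochondrial genome.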
